A study of Strongylocentrotus purpuratus with 5 samples.

Results

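The broad accessible regions described here were 1545 stretches of open chromatin at least 1000 bp long in both 12 h and 20 h embryos of the sea urchin *Strongylocentrotus purpuratus*. They were chosen on their lengths in the pooled peak list of each stage. A 20 h region of at least 1000 bp was a member when it overlapped, by 1 bp or more, exactly 1 region of the 12 h list that was itself at least 1000 bp long and overlapped no other 20 h region. Members made up 0.598% of the 258515 pooled 20 h regions and 0.647% of the 238838 pooled 12 h regions. Matching of each region to only 1 region of the other stage gave 132054 pairs in all. Lengths, and the values of 20 h libraries whose reads also went into the pooled list, are given as a description without a test.

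ATAC-seq uses a transposase that inserts sequencing adapters where DNA is not wrapped in nucleosomes, so that promoters, enhancers and silencers, where transcription factors displace nucleosomes, yield many fragments. A short accessible region commonly corresponds to a single nucleosome-free gap, whereas a longer one can hold several gaps with nucleosomes between them. Peak callers mark the position of highest signal in a peak as a summit, and a peak may have several. In early sea urchin embryos, cis-regulatory modules (CRMs) act within a well studied gene regulatory network that divides the embryo into ectoderm, endoderm and mesoderm.

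Whole embryos, grown at 15 °C, were used at the hatching blastula stage named in the labels, with 2 biological replicates at each time. At 12 h each replicate had 1 library, whereas at 20 h replicate 1 was sequenced as technical replicates 1 and 2 and replicate 2 as 1 library. Nuclei of replicate 1 at 20 h were isolated by another published protocol than all the others, which passed through a density gradient, so that preparation and replicate cannot be told apart at 20 h. Embryos hold many cell types in bulk, so that a weaker signal in all cells and a signal in fewer cells cannot be told apart. Each stage had 1 pooled list, which leaves no replicate test of stage, and an exact sign-flip test over 2 biological replicates cannot go below p = 0.5. Peak lists carry no counts of reads, and values were therefore not scaled to depth. By read totals in the quality reports, 12 h was the deeper stage, and among 20 h libraries technical replicate 2 was the deepest and replicate 2 the shallowest. Technical replicate 2 also had by far the largest share of duplicate reads of the 20 h libraries, and had the most reads even without them. Summits numbered 248700 and 300000 in the lists of technical replicates 1 and 2 and 160654 in that of replicate 2, and values of the 3 libraries are given in this order unless named.

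Most regions that were broad at 1 stage were not members. At 20 h, 3439 regions reached 1000 bp, which was 1.33% of the list, and 44.9% of them were members. Of the rest, 754 overlapped several 12 h regions, 625 overlapped 1 12 h region that fell short of 1000 bp, and 371 shared their 12 h region with another 20 h region. Only 144 broad 20 h regions, or 4.19%, overlapped no 12 h region. Broad regions were more numerous at 12 h, with 8922 or 3.74% of the list. Of these, 4680 (52.5%) spanned several 20 h regions, 2325 (26.1%) matched a shorter 20 h region, and 243 (2.72%) had no 20 h region. A long 12 h region was thus most often listed in pieces at 20 h.

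Members were mostly just over the limit. Their median length was 1197 bp at 20 h (interquartile range 1092 to 1351) and 1247 bp at 12 h (1125 to 1426), against 252 bp and 325 bp for all regions of these lists. At both stages 162 members reached 1500 bp and 21 reached 2000 bp. All members together spanned 1948 kb at 20 h and 2030 kb at 12 h. Pairs just inside and just outside the length limit had close values. For the 299 members whose shorter region measured 1000 to 1050 bp, 88.3% had a peak in both 20 h replicates and the median distance of an edge between stages was 47.5 bp. For the 369 pairs of 950 to 1000 bp these values were 89.97% and 49 bp. Strong regions lay on both sides. On scaffold 660 from 338382 to 339380, a pair whose 20 h region just missed the limit had fold enrichments over local background of 5.96, 9.37 and 10.7 in the 3 libraries, and on scaffold 222 from 629279 to 630339, a member with a 12 h region of 1000 bp had 8.19, 6.51 and 6.25. Upper bounds of length classes are not included here and in what follows.

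**Figure D1:**
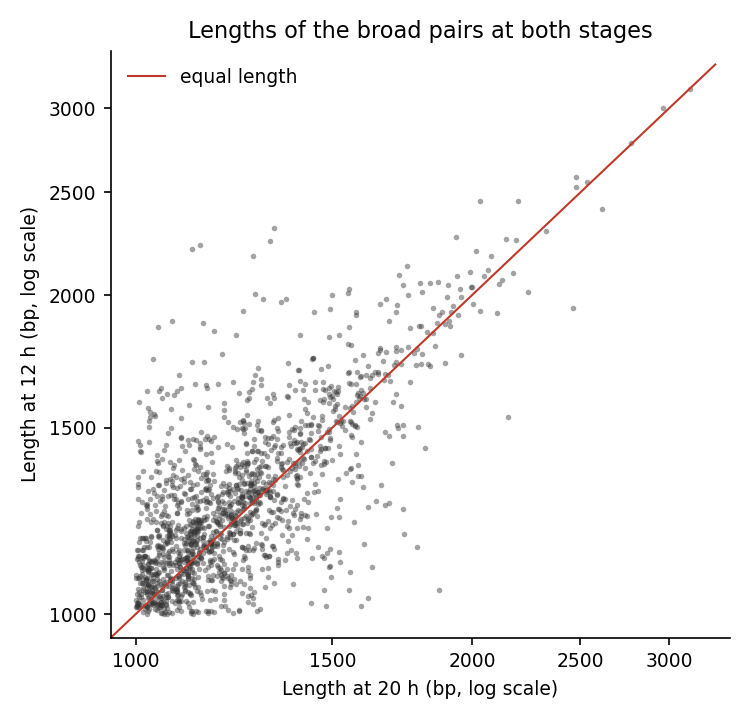
Length of each of the 1545 broad pairs at 20 h (x axis, bp, log scale) and at 12 h (y axis, bp, log scale), 1 point per pair, with a line at equal length. Points crowd near 1000 bp at both stages, and 982 pairs lie above the line, where the 12 h region is the longer.

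The 5 longest members at 20 h kept their extent from 12 h to 20 h in 4 cases. The longest lay on scaffold 384 from 4587 to 7719 and measured 3133 bp at 20 h and 3130 bp at 12 h, with its start displaced by 12 bp and its end by 9 bp. It held 9 and 10 summits in the technical replicates and 7 in replicate 2, with the authors' fold enrichment at 4.85, 4.26 and 4.43. Its fold enrichment was ordinary for a member, with a mean over biological replicates of 4.49 ± 0.0912 (SD, n = 2). The technical replicates averaged in it differed by more than this SD. The strongest summit lay at 2151, 1218 and 2717 bp from the start in the 3 libraries. Scaffolds 741 (406823 to 409788) and 3051 (2843 to 5616) held members of 2966 bp and 2774 bp whose edges were displaced by at most 29 bp. The member on scaffold 68 from 208644 to 211177 had edges within 20 bp, yet held 7, 6 and 1 summits in the 3 libraries. The exception was scaffold 1719 from 217463 to 220077, where the 20 h region began 281 bp and ended 76 bp before the 12 h region.

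Within single libraries, members were often not 1 uninterrupted peak. Exactly 1 peak overlapped 35.1% and 55.9% of members in the technical replicates and 49.3% in replicate 2. The longest peak in the member reached 1000 bp in 19.4%, 46.9% and 20.1% of members. In all 3 libraries at once, 65 members, or 4.21%, had such a peak, and 959 (62.1%) had one in any of them. The longest peak within a member had a median length of 627.5 and 974 bp in the technical replicates and 525 bp in replicate 2. A mean of 1.90, 1.53 and 1.48 separate peaks per member covered on average 71.8%, 85.6% and 53.1% of its length in these libraries. The breadth of most members was thus seen in the pooled lists, in which overlapping peaks were merged, and in part in single libraries.

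Replicates supported members more often than the typical region. A member counted as found in a library when a peak overlapped it by 1 bp or more, and in replicate 1 when either technical replicate had such a peak. Both biological replicates had a peak in 1428 members, or 92.4% (95% Wilson interval 91.0 to 93.6, which covers counting error only), against 34.4% of all pooled 20 h regions. All 3 libraries had one in 1421 members (92.0%), against 20.6% of all 20 h regions. At least 2 summits in both replicates were found in 990 members (64.1%), against 2.48%. A best peak with a q below 0.05 in each of the 3 libraries was found in 987 members (63.9%), against 6.57%. These shares stand far above the background of the list, but a longer region also meets a peak more easily. Pairs of 750 to 1000 bp reached 86.7%, 85.3%, 42.7% and 54.6% for the same 4 calls.

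Support rose with length without a break at 1000 bp. The share with a peak in both replicates was 27.6% in pairs of 150 to 250 bp, 52.2% at 250 to 500 bp, 76.5% at 500 to 750 bp and 86.7% at 750 to 1000 bp. Among members it was 91.1% at 1000 to 1250 bp, 94.6% at 1250 to 1500 bp and 96.3% from 1500 bp upwards. The fold enrichment of the best peak rose less steeply. In technical replicate 1 its median went from 2.95 in the shortest class to 4.62 in the longest, and in technical replicate 2 from 2.92 to 4.59. In replicate 2 it was 2.92 in the shortest class and 4.23 at 750 to 1000 bp, and in the 3 classes of members it was 3.97, 4.05 and 4.23. In that library members were thus not above the next shorter pairs.

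**Figure D2:**
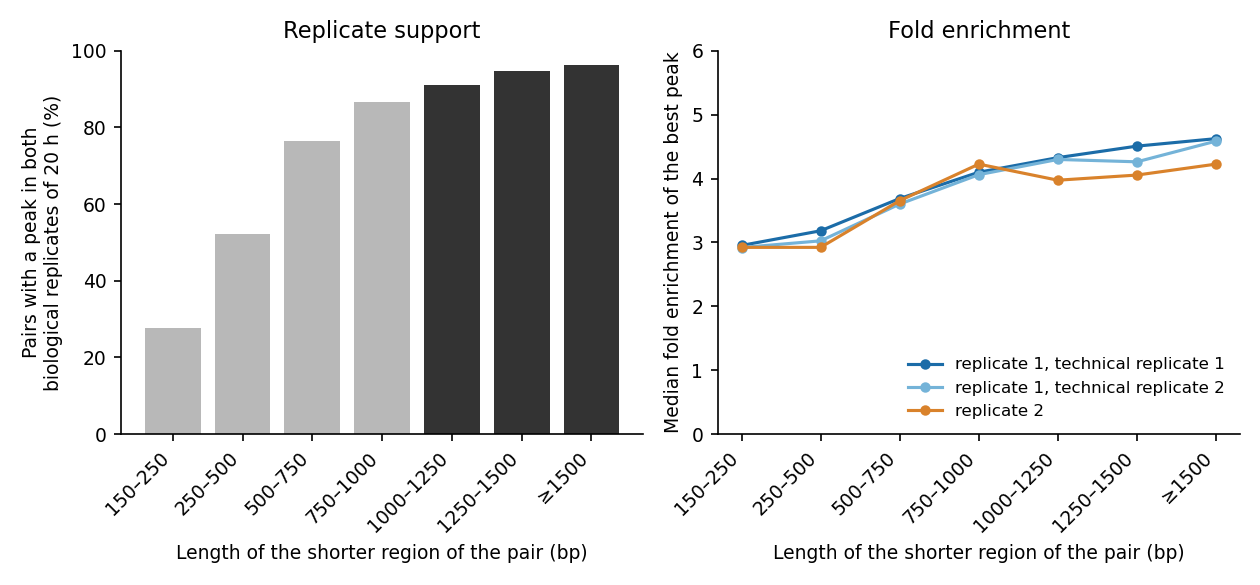
Left, share of pairs with a peak in both biological replicates of 20 h (y axis, %), and right, median fold enrichment of the best peak in each 20 h library (y axis, fold over local background), by the length of the shorter region of the pair (x axis, bp). Dark bars are members. The share rises from 27.6% to 96.3%, and the lines of the 3 libraries stay between 2.92 and 4.62.

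Members without support were missing from the shortest peak list. Replicate 2 lacked a peak in 117 members, technical replicate 1 in 7 and technical replicate 2 in 0. No member lacked a peak in both technical replicate 1 and replicate 2. The 117 members were shorter at 20 h, at a median length of 1125 bp, compared with 1204 bp in the others, and their fold enrichment was lower in the libraries that did find them. In technical replicate 1 their median was 4.04 against 4.45, and in technical replicate 2 it was 3.87 against 4.38. The list of replicate 2 also held the fewest peaks, and the part of this in these absences was not tested.

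Among 20 h regions of at least 1000 bp, members had the highest share found in both replicates. The share was 86.9% for regions that overlapped several 12 h regions, 86.3% for those that shared their 12 h region, 78.7% for those with a shorter 12 h region and 37.5% for those with no 12 h region. Among regions of 1000 to 1200 bp, 701 of 779 members were found in both replicates, or 89.99% (Wilson interval 87.7 to 91.9), against 86.7% (83.0 to 89.8), 83.4% (78.1 to 87.6), 80.7% (77.1 to 83.9) and 40.0% (30.7 to 50.1) for those classes. The intervals of members and of the first class overlap, and members had the longest median within this range, at 1093 bp against 1062 to 1090.5 bp. Mean summit numbers in replicate 2 were 1.76 for these members and 0.463 for regions with no 12 h region, whereas in technical replicate 2 they were 2.49 and 2.14. The length-limited values were added after the data were seen.

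The best peak of a member was somewhat stronger than that of a typical region in every library. Its median fold enrichment over local background in technical replicate 1 was 4.41 (range 2.14 to 12.2), 4.31 in technical replicate 2 (1.99 to 11.5) and 4.05 in replicate 2 (1.67 to 15.3). For all 20 h regions the medians were 3.12, 2.99 and 2.92, and for pairs of 750 to 1000 bp they were 4.10, 4.06 and 4.23. The best peak is picked among all summits of a region. Members held 2.57, 2.88 and 1.98 summits on average, against 0.690, 0.843 and 0.388 in all 20 h regions. The part of this in the difference was not tested. For members the mean over biological replicates was 4.21 ± 0.215 (SD, n = 2). Median −log10 p values of the best peak were 6.46, 7.31 and 5.02, and 96.4%, 99.2% and 65.8% of all members had a best peak with a q below 0.05. In replicate 2 many weak peaks share a single fold value of 2.92, which was that of the best peak in 134 members, so that ranks among its weak members carry little information.

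Strength of single members agreed only moderately between libraries. The log2 ratio of fold enrichment in replicate 2 over replicate 1 had a median of −0.04 and an interquartile range of −0.45 to 0.43 over 1418 members, and 64.7% lay within 1.5-fold. Between technical replicates 88.8% lay within 1.5-fold. Spearman correlations of fold enrichment across members were 0.59 between technical replicates (n = 1538), and 0.46 between replicate 2 and either of them (n = 1418 and 1425). In pairs of 500 to 1000 bp the corresponding values were 0.51, 0.42 and 0.48. Regions are not replicates and these libraries share embryo stage and genome, so that no p is given.

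The 5 members that ranked best over the 3 libraries had fold enrichments well above the median. The first lay on scaffold 9 from 1196027 to 1197065, with a fold enrichment of 12.2 and 7.97 in the technical replicates and 15.3 in replicate 2. Its summits were at 566 and 874 bp from the start, at 566 and 858 bp, and at 548 and 857 bp in these libraries, so that both positions were common to all. The 12 h region began at the same base and ended 507 bp farther on. Scaffold 1726 from 281260 to 282500 had fold enrichments of 9.94, 7.05 and 13.9, and scaffold 939 from 111088 to 112274 had 8.81, 8.34 and 12.8. Scaffold 1216 from 101468 to 102870 had 10.0, 8.69 and 9.97, and its replicates differed least, at 9.65 ± 0.44 (SD, n = 2). Its strongest summit lay at 436, 433 and 443 bp from the start. Scaffold 1610 from 52343 to 53598 had 9.83, 8.01 and 11.1, with its strongest summit at 511, 524 and 528 bp. Replicate 2 was the highest library in 4 of the 5.

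The highest −log10 p of any member in technical replicate 1 did not go with a high fold enrichment. On scaffold 518 from 508602 to 510091, technical replicate 1 had a −log10 p of 204 at a fold enrichment of 4.69, and technical replicate 2 and replicate 2 had 44.4 and 24.4 at 3.42 and 4.76. The highest value in technical replicate 2 was 55.1, on scaffold 1086 from 57733 to 59083, at a fold enrichment of 10.8. In replicate 2 it was 54.9, on scaffold 1224 from 379463 to 380561, at 12.2, where technical replicates 1 and 2 had 5.84 and 5.91. These 3 members were chosen after their values were seen. A −log10 p grows with signal and background together, whereas the fold enrichment is relative to background.

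Most members held several summits. The mean number per member was 2.57 and 2.88 in the technical replicates and 1.98 in replicate 2, with maxima of 9, 10 and 7. Averaged over biological replicates it was 2.35 ± 0.528 (SD, n = 2). A single summit was found in 172, 100 and 427 members, and 4 or more in 231, 369 and 127. Replicate 2 had fewer summits in the same regions than either technical replicate. Longer members held more. In technical replicate 2 the mean rose from 2.57 at 1000 to 1250 bp to 3.21 at 1250 to 1500 bp and 4.20 from 1500 bp upwards.

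Summit density changed little with length from 750 bp upwards. Members held 2.04, 2.28 and 1.57 summits per kb in the 3 libraries, and pairs of 750 to 1000 bp held 2.00, 2.23 and 1.61. Averages over biological replicates were 1.86 ± 0.418 and 1.87 ± 0.357 (SD, n = 2), and differ by far less than the replicates. From members of 1000 to 1250 bp to those of 1500 bp and more, the density went from 2.04 to 2.08, from 2.24 to 2.36 and from 1.58 to 1.55 per kb. From 750 bp upwards a longer region thus held more summits at about the same density. This did not hold for the shortest pairs. At 150 to 250 bp the density was 2.24, 3.37 and 1.38 per kb, above members in both technical replicates and below them in replicate 2.

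Summits lay at a spacing that differed little between the libraries. The median spacing was 370 bp (interquartile range 277 to 504) and 339 bp (263 to 463) in the technical replicates and 365 bp (283 to 536) in replicate 2. The mean over biological replicates was 359.75 ± 7.42 bp (SD, n = 2), an SD smaller than the gap between the technical replicates averaged in it. In each library the fullest 50 bp class was 250 to 299 bp, with 401, 497 and 316 spacings. Spacings under 150 bp were rare, with 21, 33 and 13, and the shortest were 81, 84 and 67 bp. At the other end, 14.7%, 10.6% and 18.7% of spacings were 600 bp or more. Pairs of 750 to 1000 bp had a median spacing of 337.5, 324 and 318 bp, but a region cannot hold a spacing longer than itself, so that medians of different length classes are not on an equal footing.

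**Figure D3:**
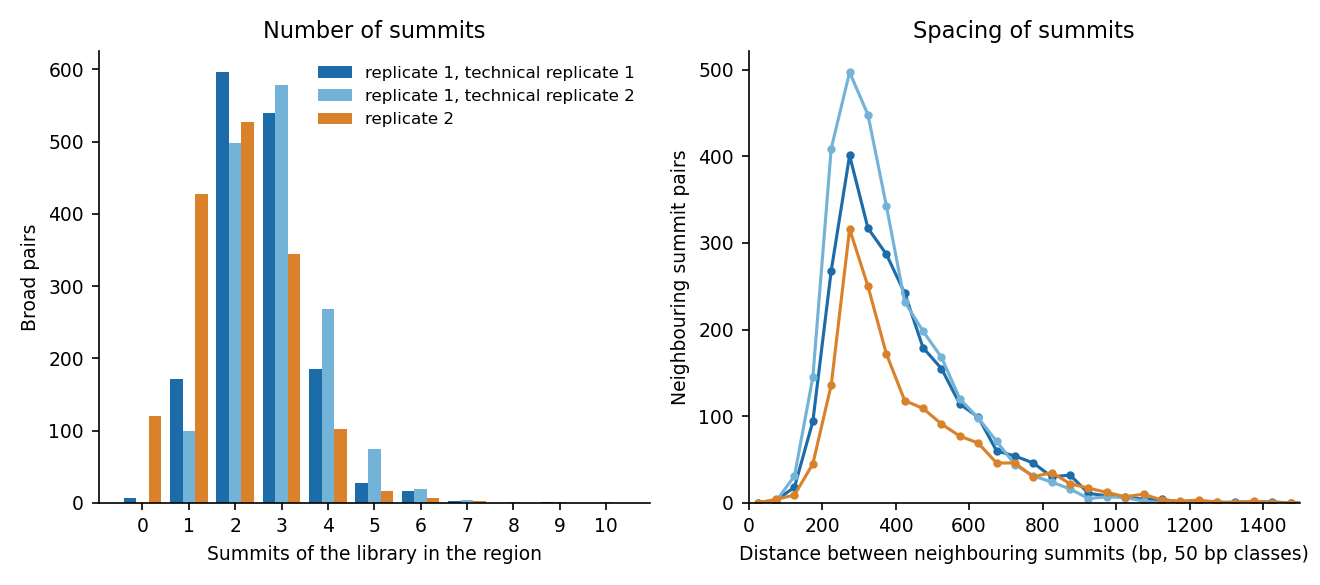
Left, number of broad pairs (y axis) by the number of summits of a 20 h library inside the region (x axis). Right, number of neighbouring summit pairs (y axis) by their distance (x axis, bp, in 50 bp classes). Colours mark the 3 libraries. Replicate 2 has a single summit in 427 pairs, more than the other libraries, and all 3 libraries have their fullest spacing class at 250 to 299 bp.

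Positions of summits agreed partly between libraries. Of the summits of replicate 2, 60.97% lay within 100 bp of a summit of technical replicate 2 in the same member, with a median distance of 69 bp, and 54.2% within 100 bp of a summit of technical replicate 1. From technical replicate 1 to technical replicate 2 the share was 56.0% and the median distance 82 bp. A library with more summits offers nearer targets, so that these shares follow the list that is searched. Searched against technical replicate 2, the summits of technical replicate 1 were no nearer than those of replicate 2. The same number of summits in both was found for 34.1% of members between technical replicates, and for 31.1% and 31.3% between replicate 2 and technical replicates 1 and 2.

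The strongest summit changed place between libraries in many members. Its position differed by a median of 231 bp between technical replicates, and by 251.5 and 242 bp between replicate 2 and technical replicates 1 and 2. In 211 of 1418 members (14.9%) the strongest summits of all 3 libraries lay within 100 bp of each other. The second summit was nearly as strong as the best, with a median ratio of fold enrichment of 0.817, 0.831 and 0.774. The strongest summit had no preferred end. Its median relative position was 0.490, 0.509 and 0.488 of the length of the region, and 7.54%, 6.60% and 8.14% lay in the outermost 10% at either end.

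A common layout of all summits was seen in few members. In 176 members (11.4%) all 3 libraries had the same number of at least 2 summits, and in 33 members (2.14%) every summit also lay within 100 bp across libraries. Of these 33, 12 had 2 summits, 16 had 3 and 5 had 4. The member on scaffold 57 from 572134 to 573258, which is among the 5 just inside the length limit, had summits at 224, 601 and 841 bp in technical replicate 1, at 254, 563 and 811 bp in technical replicate 2 and at 267, 568 and 821 bp in replicate 2. Its fold enrichment was 6.004, 5.71 and 9.15. All 3 positions were common to all libraries there.

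Of the 5 members with the most summits, the one on scaffold 523 from 247548 to 249615, a region of 2068 bp, had the most even spacing in replicate 2. Technical replicate 2 had summits at 143, 358, 620, 883, 1198, 1416, 1620 and 1933 bp from its start. Replicate 2 had them at 124, 346, 618, 876, 1143, 1419 and 1667 bp. Technical replicate 1 had 5, at 345, 603, 1134, 1399 and 1902 bp. In replicate 2 neighbouring summits were 222 to 276 bp apart, and in technical replicate 2 they were 204 to 315 bp apart. The 5 summits of technical replicate 1 each had a counterpart in technical replicate 2, with some of the positions between them left empty. The fold enrichment of the best peak was 5.10, 4.43 and 6.15. By contrast, neighbouring summits of replicate 2 in the longest member, on scaffold 384, were 213 to 596 bp apart. The member on scaffold 90 from 203684 to 205883 held 6 summits in each library, of which the first 3 agreed within 61 bp and the next 2 differed by up to 432 bp.

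Boundaries of members moved little between stages. The distance between the 12 h and the 20 h edge had a median of 48 bp (binomial interval of the median 46 to 50), with 49 bp at starts and 48 bp at ends. In 441 members (28.5%) both edges lay within 50 bp, close to the 27.1% of pairs of 750 to 1000 bp and 26.9% of all pairs. The start was the same in 60 members, the end in 47 and both in 1. Over all 132054 pairs these counts were 3491, 3300 and 99. The summed displacement of both edges was a median 9.47% of the mean length, against 14.0% in pairs of 750 to 1000 bp. In bp, however, the displacement of an edge was 50 bp in those pairs and 50 bp over all pairs. Edges of long and short regions thus moved by about the same number of bp.

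Single 20 h libraries differed more among themselves than the pooled lists of the stages did. The outer edge of the peaks in a member differed by a median of 99 bp between technical replicates, 161 bp between technical replicate 1 and replicate 2, and 142 bp between technical replicate 2 and replicate 2. The displacement between stages is therefore smaller than the spread between libraries of 1 stage. The comparison favours the stages, because pooled lists rest on more reads and each member had to be broad in both. Edges of the pooled 20 h list lay closest to technical replicate 2, at a median of 30 bp, against 57 bp for technical replicate 1 and 105 bp for replicate 2.

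**Figure D4:**
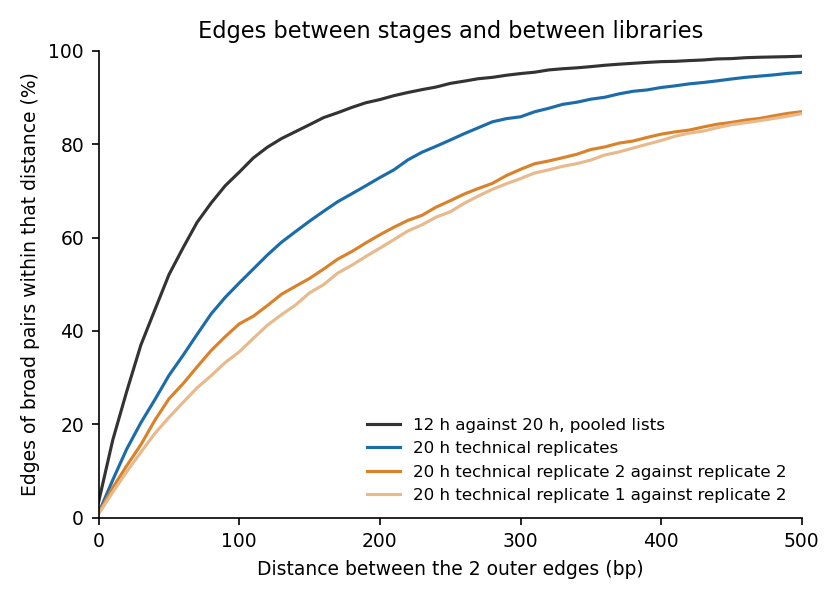
Cumulative share of edges of broad pairs (y axis, %, starts and ends pooled) by the distance between the corresponding outer edges of 2 lists (x axis, bp). The line for the pooled lists of the 2 stages passes 52.1% at 50 bp, and the lines for pairs of 20 h libraries pass 30.5%, 25.5% and 21.5%.

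Members were more often longer at 12 h. The 12 h region was the longer in 982 members, or 63.6% (95% Wilson interval 61.1 to 65.9), and the ratio of the 12 h to the 20 h length over all members had a median of 1.03 (range 0.565 to 1.97). The same was seen in 64.6% of pairs of 750 to 1000 bp and in 69.7% of all pairs, where the median ratio was 1.18. The share was no larger in members than in other pairs. The ratio was smaller, but it comes from the same lengths on which members were chosen. It also fell with length among the other pairs, from a median of 1.34 at 150 to 250 bp to 1.04 at 750 to 1000 bp. The 12 h region held the whole 20 h region in 588 members (38.1%), the 20 h region held the 12 h region in 239 (15.5%), and in the remainder the regions were staggered. The first 2 shares were 37.6% and 14.5% in pairs of 750 to 1000 bp, and 42.9% and 12.8% in all pairs. The 12 h stage was also the more deeply sequenced, so that stage and depth cannot be told apart.

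The members with the smallest and the largest displacement had overlapping ranges of 20 h fold enrichment. On scaffold 1321 from 71836 to 73004 both edges were identical at the 2 stages, with 2, 3 and 2 summits and a fold enrichment of 5.86, 5.08 and 4.10. On scaffold 138 from 24715 to 25926 the edges differed by 2 and 0 bp, and the fold enrichment was 4.04, 2.81 and 3.77. The member on scaffold 858 from 448355 to 450080 had edges within 3 bp although replicate 2 had no peak there, so that close edges did not require support in both replicates. The largest displacement was on scaffold 103 from 857544 to 859279, where the 20 h region began 895 bp and ended 631 bp before the 12 h region. It had 4, 3 and 1 summits and a fold enrichment of 4.74, 6.97 and 2.92. On scaffold 400 from 635959 to 637742 the start came 877 bp and the end 250 bp earlier at 20 h, with a fold enrichment of 5.02, 3.93 and 2.76. On scaffold 219 from 408848 to 410178 the 12 h region began 1055 bp before the 20 h region, and technical replicate 2 and replicate 2 shared summits at 266 and 293, 501 and 519, 814 and 809, and 1004 and 982 bp.

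Members lay farther from their neighbours than shorter regions did. The nearest other 20 h region was a median of 1146 bp away (binomial interval 1033 to 1260, interquartile range 376 to 2956), against 856 bp for pairs of 750 to 1000 bp, 744 bp for all pairs and 589 bp for all 20 h regions. On the 12 h side the median was 1048 bp for members and 657 bp for all pairs. Distances rose with length within members as well, from 1065 bp at 1000 to 1250 bp to 1288 bp at 1250 to 1500 bp and 1767 bp from 1500 bp upwards. A long merged region may take in peaks that would otherwise count as its neighbours. Pairing also leaves out any 20 h region whose 12 h region reaches another 20 h region, whereas the list of all 20 h regions keeps it. The part of either in these distances was not tested. Another 20 h region lay within 500 bp of 473 members (30.8%). The share was 34.2% in pairs of 750 to 1000 bp, 35.6% in all pairs and 45.2% in all 20 h regions. Over all members and at any distance, the nearest 20 h regions had a median length of 259 bp, against 252 bp for all 20 h regions. Of these nearest regions 63.8% overlapped a 12 h region, against 63.6% of all 20 h regions.

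The nearest 20 h region of a member was another member about as seldom as members are in the list. This held for 12 of 1538 nearest neighbours (0.780%), against 0.598% of all 20 h regions. Members were spread over 1008 scaffolds, and 693 members (44.9%) were alone on theirs. For the other 852 the nearest member was a median of 83962 bp away. Only 20 members lay within 5000 bp of another, in 10 runs of 2. The closest were on scaffold 2787, from 15739 to 16771 and from 16935 to 18045, with 163 bp between them at 20 h and 141 bp at 12 h. Both were weak, with a best fold enrichment of 4.04 and 2.84 in the technical replicates and no peak in replicate 2 for the first, and of 3.89, 2.77 and 2.16 for the second. The next pair began at 140076 on scaffold 841, with 338 bp between its members. Scaffold 59 held the most members, 7 over a span of 1074 kb. Scaffold 608 held 6 within 349.7 kb and scaffold 523 held 6 within 497 kb.

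Isolated members were of different strength. On scaffold 938 from 53423 to 54831 no other 20 h region lay within 27542 bp, and the fold enrichment was 6.25, 5.75 and 8.95. Its summits were at 174, 499, 831 and 1211 bp in technical replicate 1, at 142, 481, 825 and 1059 bp in technical replicate 2 and at 172, 496, 768, 1010 and 1280 bp in replicate 2, so that the first 3 were common to the libraries. On scaffold 1328 from 50031 to 51185, at 27513 bp from the next 20 h region, technical replicate 1 had no peak and the others had 3.43 and 2.92. Its next 12 h region was only 646 bp away. The longest member, on scaffold 384, was the third, with 22354 bp to the next 20 h and 61624 bp to the next 12 h region. Ends of scaffolds played a small part, with 31 members (2.01%) within 200 bp of one, against 1.86% of all pairs.

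A few members overlap CRMs tested by reporter assay and are named here by the gene of the CRM. The study lists CRMs by gene and position, and only these names and positions were used, without their reporter activity. Of 320 such CRMs that overlapped any pooled 20 h region, 13 overlapped a member, in 10 members, and these CRMs are named for 9 genes. The share of all 20 h regions that overlap such a CRM was not computed. The count therefore does not show whether members overlap CRMs more or less often than other regions. The genes encode transcription factors except for *Univin*, whose product is a signalling ligand of the TGF-β family. In 6 members a CRM held the whole member, and the overlap does not place any activity within the member. Positions may differ by 1 bp, since the CRM list does not state whether it counts from 0 or 1. Each of the 10 members had a peak in all 3 libraries, as did 92.0% of all members.

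*SoxB1*, an HMG-box transcription factor gene expressed in the ectoderm, had 2 members on scaffold 1358. The longer, from 251411 to 253093, lay whole within CRM SoxB1_If_01 and shared 650 bp with SoxB1_Uf_01. Its start differed by 2 bp and its end by 4 bp between stages. It held 4 summits in each library, at 202, 474, 974 and 1258 bp in technical replicate 1, at 282, 663, 990 and 1383 bp in technical replicate 2 and at 300, 599, 945 and 1481 bp in replicate 2. The number was the same, but only the first and the third position agreed within 100 bp in all 3. Fold enrichments were 5.85, 4.94 and 8.60, which gives 6.995 ± 2.27 (SD, n = 2). The other member, from 231751 to 233022, lay within SoxB1_Df_03, 18388 bp away, and had fold enrichments of 4.62, 4.35 and 7.82. In both, replicate 2 was the highest.

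The member of *Nfe2*, a bZIP transcription factor gene, had the most repeatable summits of the 10. It lay on scaffold 62 from 381990 to 383319 within Nfe2_If_02. Its summits were at 437, 734 and 1024 bp in technical replicate 1, at 435, 733 and 994 bp in technical replicate 2 and at 406, 728 and 1002 bp in replicate 2. Each position agreed within 31 bp across libraries. Fold enrichments were 5.98, 3.88 and 6.78, or 5.86 ± 1.31 (SD, n = 2). The member of *Elk*, an ETS-domain transcription factor gene, lay on scaffold 630 from 437508 to 438547 within Elk_Ur_01 and had 2 summits in each library, at 424 and 769 bp, 379 and 778 bp, and 448 and 797 bp. Its fold enrichments were 6.41, 4.87 and 7.76.

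The other genes had 1 member each. At *Univin*, the member on scaffold 344 from 488639 to 490050 shared 1093 bp with Univin_Ur_01 and 225 bp with Univin_Ir_01-2, and its fold enrichments were 5.01, 4.09 and 6.23. A summit near the middle and another toward the end were common to the libraries, at 590 and 1097 bp, 581 and 1087 bp, and 539 and 1029 bp. At *Gsc*, a homeobox gene of the oral ectoderm whose product represses transcription, the member on scaffold 468 from 359350 to 360395 shared 518 bp with Gsc_Uf_01 and 5 bp with Gsc_If_01. Its fold enrichment was 2.97, 4.07 and 6.58, with 5.05 ± 2.17 (SD, n = 2), so that the libraries differed by more than 2-fold. At *GataC*, which encodes a GATA factor of the non-skeletogenic mesoderm, the member on scaffold 704 from 581008 to 582682 lay within GataC_Uf_05 and had low but even fold enrichments of 3.84, 3.995 and 3.49. At *Unc41*, a homeobox gene, the member on scaffold 1710 from 51720 to 52788 lay within Unc41_If_02, with 2.19, 3.21 and 4.36. At *Tbx23*, a T-box gene of the aboral ectoderm, the member on scaffold 364 from 469724 to 470944 shared 358 bp with Tbx23_Ir_08, with 3.57, 3.40 and 2.32. At *Nk22*, an NK-class homeobox gene, the member on scaffold 901 from 364830 to 365955 shared 48 bp with Nk22_If_02, with 4.61, 5.56 and 3.97. Neither the highest nor the lowest library was the same across these genes.

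**Figure D5:**
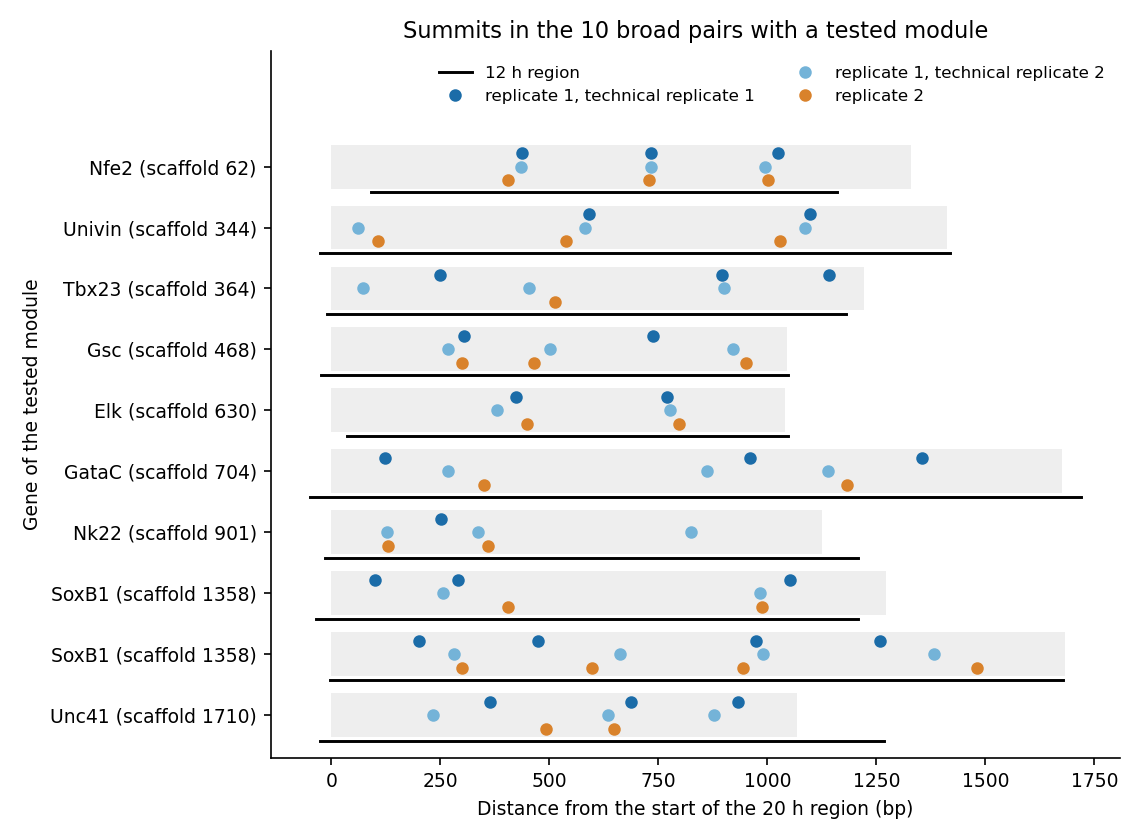
Summits of the 3 libraries of 20 h (points) in the 10 broad pairs that overlap a tested CRM, by distance from the start of the 20 h region (x axis, bp), with the gene of the CRM and the scaffold at the left. Grey bars are 20 h regions and black lines are 12 h regions. Columns of points line up at *Nfe2* and *Elk*, and the 12 h region of the longer *SoxB1* member starts within 2 bp and ends within 4 bp of the 20 h region.

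The other 1535 members were not assigned to genes, because no annotation of the genome version of these lists was used here. For the same reason their sequences are not shown.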

How the data were processed

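The authors mapped ATAC-seq reads to version 3.1 of the *S. purpuratus* genome using the ATAC-seq pipeline of ENCODE. Peaks were called by the authors with MACS2 (p-value threshold of 0.05), keeping up to 300000 peaks per list. Technical replicate 2 of 20 h reached this limit, and the names of both pooled lists give it too. No version of MACS2 is given in the sources used here. The deposited pooled list of each stage holds merged regions without a score. The deposited 20 h library lists hold 1 line per summit, with a score that was not used, the authors' fold enrichment over local background as a ratio, and −log10 p and −log10 q values from the peak caller, which carry no replicate error. By the study's methods, technical replicate 1 had paired ends and the other 20 h libraries had single ends, so libraries also differ in sequencing.

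Regions were paired where each overlapped only the other. A summit belonged to the region that contained it, and the best peak was that with the highest −log10 p. Technical replicates were averaged before the mean and SD over 2 biological replicates. Wilson intervals of shares and binomial intervals of medians were 95% and cover counting error only, with regions on a scaffold treated as independent. Members, comparison sets and named regions were chosen with earlier results of these data known. Named regions were the 5 longest, the 5 ranked best by −log10 p on average over libraries, the 5 with the most summits, the 3 with the smallest and the 3 with the largest summed displacement of edges, the 3 closest to another member, the 3 farthest from another 20 h region, the 5 just inside and 5 just outside the length limit, and all that overlap a tested CRM. Alternatives varied the length limit, the overlap, joining, the peak threshold, summit thinning and the libraries used. A genome of version 3.1 was not used here, so that sequences were not read, and per-library lists of 12 h were not analysed here. No column of per-sample values was left without a sample. The functions for pairing, summits and distances were tested on simulated data. Scripts ran in Python 3.11.15 with numpy 2.4.6, pandas 2.3.3, scipy 1.17.1 and matplotlib 3.10.9.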

Additional observations from a re-analysis of the deposited data

How the results depend on the processing

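Of 37 alternatives to the 8 main values, 22 moved the value by less than its replicate SD or interval, and 15 by more. For a count the limit was 1.5-fold. The number of broad pairs was 3875 with a limit of 800 bp, 642 with 1200 bp and 2490 with regions within 100 bp joined. With a limit of 1200 bp, the median summit spacing was 371.5 bp, the share found in both biological replicates 94.9%, the median edge displacement 45 bp and the distance to the nearest 20 h region 1331 bp. With summits of −log10 p of at least 3, the spacing was 341.75 bp, and with such peaks the share found in both replicates was 78.6%. Among members under 1200 bp at 20 h, a comparison chosen after seeing the data, it was 89.99%. The share was 53.3% when library peaks had to cover 50% of the region, and peaks of replicate 2 covered less of a member on average. These shares were computed for members alone, so the distance from other 20 h regions under these settings is not known. The median over all peaks of a region, which cannot exceed the best, gave a fold enrichment of 3.62. Joining regions within 100 bp gave an edge displacement of 52 bp. Leaving out each 20 h library gave a spacing of 352 to 367.5 bp, 2.28 to 2.72 summits per member, a fold enrichment of 4.18 to 4.36 and, without either technical replicate, a share in both replicates of 92.0% to 92.4%. No paired analysis was possible, because the labels link no 12 h replicate to a 20 h replicate, and the 12 h list used here is pooled. Without counts of reads, a peak missing from replicate 2, the shallowest 20 h library, cannot be read as closed chromatin. The planned reading of member sequences was not run.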
